A study of Mus musculus with 18 samples.

Results

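Chemokines are small secreted proteins that guide the movement of leukocytes through G protein-coupled receptors. Described here are the genes of 5 CC chemokines, Ccl2, Ccl5, Ccl7, Ccl20 and Ccl25, and of the CX3C chemokine Cx3cl1, 6 of the 24421 genes in the count table. They were chosen by symbol, with earlier measured values of these same libraries in view, so that their levels in untreated cells are given as a description without a test. Their response to drug, the difference between responses and their levels after drug were tested as part of the fit over all genes.

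The parental cells, 4T1, are a line of mouse breast cancer that the labels give as strain BALB/cfC3H and wild type, and 4T1R1 and 4T1R2, populations derived from 4T1 in separate selections. Selection was by repeated exposure to 17-DMAG, a geldanamycin derivative that inhibits the chaperone HSP90, and the sources differ on its dose and length. Every population contributed 3 untreated libraries and 3 from cells given 17-DMAG at 1.5 µM, so that there were 6 groups and 18 libraries. The sample records give 48 h of drug and the text of the series gives 2 h, so the length of exposure is uncertain. The samples were cultured tumor cells without host tissue. No library of parental cells carried through the same passages without drug was used here, and each resistant population is 1 selected culture.

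Totals ran from 23354461 to 55094630 counts per library. In the treated 4T1 group, replicates 1 and 2 differed by 1.10 in chi-square per gene, against 2.04 to 2.22 in the other pairs of replicates. They were counted as 1 sample by averaging, which leaves n = 2 in that group, n = 3 in the other groups and 17 libraries in the fit. The identifiers of the 4T1R1 libraries form a series apart from the other 2 populations, so a level that is high in 4T1R1 alone cannot be told apart from that difference between library series. A change with drug inside 4T1R1 lies within 1 series. Values below are normalized counts, which are counts divided by the scaled size of the library. Counts of 1 to 12 were even in 65.55% to 70.75% of cases, so that a count of 2 may be a single fragment. In bulk RNA, fewer cells of a type and less RNA per cell cannot be told apart.

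Markers of the labelled cell type were checked first. All 4 epithelial markers (Epcam, Krt8, Krt18 and Cdh1) were present in every group, and their sum ran from 57850 to 61220 normalized counts in 4T1, from 41430 to 43550 in 4T1R1 and from 47430 to 49170 in 4T1R2. Of 9 leukocyte and myeloid markers, 4 to 6 exceeded 3 counts in some library of each group, and their sum was 342.8 to 448.6 in 4T1, 618.4 to 854.5 in 4T1R1 and 786.7 to 976.8 in 4T1R2. Nearly all of that sum was Cd14, at 164.2 to 718.6 over the libraries, and Cd68, at 118.1 to 207.4. The pan-leukocyte gene Ptprc stayed between 3.71 and 18.2, and the T cell gene Cd3e reached 2 counts in a library. Untreated group means of Ptprc were 14.9 in 4T1, 5.85 in 4T1R1 and 10.2 in 4T1R2. The sum of 6 fibroblast markers, mostly Pdgfra, was 400.3 to 770.6 in 4T1 and 713.1 to 1043 in the resistant populations. The sum of 4 endothelial markers stayed between 8.64 and 40.9. The leukocyte sum, unlike the group means of Ptprc, was higher in both resistant populations, as Ccl2 and Ccl20 were. The part of leukocyte markers in the levels of these 2 genes was not tested.

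CCL2 and CCL7 are ligands of CCR2 and draw monocytes from blood into inflamed tissue and tumors. CCL5 binds CCR1 and CCR3, among others, and attracts T cells, monocytes and eosinophils. CCL20 is the ligand of CCR6 on dendritic cells and Th17 cells, and CCL25 is the ligand of CCR9 that brings T cells to thymus and gut. CX3CL1, or fractalkine, is made as a membrane protein on a mucin stalk, and ADAM10 and ADAM17 release it as a soluble attractant for cells with CX3CR1. Several of these genes are induced through NF-κB in epithelial and stromal cells.

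Promoter sequence is shown for Ccl20 and Cx3cl1, which fell under 17-DMAG in 2 and 3 of the populations. The RefSeq promoter table of GRCm38.p6 held 3 of the 6 members, Ccl20, Ccl25 and Cx3cl1. Each sequence runs 5′ to 3′ on the plus strand, from 250 bases before the RefSeq start to 50 bases after it, at chr1:83116516-83116815 for Ccl20 and chr8:94771930-94772229 for Cx3cl1. Capitals mark a match to the NF-κB consensus.
Ccl20: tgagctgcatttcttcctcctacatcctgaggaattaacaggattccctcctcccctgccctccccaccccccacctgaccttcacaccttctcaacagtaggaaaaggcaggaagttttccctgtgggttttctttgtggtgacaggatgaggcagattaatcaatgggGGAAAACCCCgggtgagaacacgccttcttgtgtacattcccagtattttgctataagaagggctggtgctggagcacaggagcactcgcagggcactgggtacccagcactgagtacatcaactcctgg
Cx3cl1: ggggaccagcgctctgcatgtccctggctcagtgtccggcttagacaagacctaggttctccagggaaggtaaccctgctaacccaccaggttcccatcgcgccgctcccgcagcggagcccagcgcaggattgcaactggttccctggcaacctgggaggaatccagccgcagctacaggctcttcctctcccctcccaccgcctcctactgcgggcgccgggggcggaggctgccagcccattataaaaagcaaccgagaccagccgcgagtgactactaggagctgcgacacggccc
Searched on both strands, the Ccl20 window held 1 NF-κB match, GGGGTTTTCC on the minus strand at −80 to −71 relative to the start. The Cx3cl1 window and both Ccl25 windows held no match to these letters. No match to the AP-1 motif TGANTCA or to the interferon element core (GAAA, any 2 bases, GAAA) was found in any of the 4 windows. Among 32851 promoters in the table, 4.505% held the NF-κB consensus, 7.808% the AP-1 motif and 3.443% the interferon core. With 1 match in all, no motifs overlapped in these windows. A match describes letters only and does not show binding.

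Ccl2 (chromosome 11, 82035571 to 82037453, plus strand, GRCm38) was near the floor in 4T1 and high in both resistant populations. Untreated 4T1 libraries had 2.07, 0 and 0 normalized counts, and both treated 4T1 libraries had 0. Untreated 4T1R1 libraries had 1329, 1220 and 1184, and treated ones 881, 827.3 and 845.4. In 4T1R2 the values were 78.6, 73.0 and 76.0 untreated and 97.3, 98.7 and 91.3 after drug. Every resistant library stood above every 4T1 library, and every 4T1R1 library stood above every 4T1R2 library. The untreated level in 4T1R1 was 1820 times that in 4T1, with an exact 95% interval from 503.6 to 15040, and that in 4T1R2 was 111.5 times, from 30.5 to 926.8. Both ratios rest on 2 counts in 4T1. The intervals cover counting error only and take each count as a separate event. They are too narrow if those 2 counts are a single fragment.

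Ccl7 (chromosome 11, 82045712 to 82047525, plus strand), whose start lies 10141 bases from that of Ccl2, had no count in any 4T1 library. Its values in 4T1R1 were 136.4, 150.2 and 158.8 untreated and 115, 128 and 95.2 after drug. In untreated 4T1R2 they were 0, 0 and 9.36, and in treated 4T1R2 3.71, 1.73 and 9.51. All 4T1R1 libraries stood far above the rest, while the 4T1R2 libraries overlapped with those of 4T1 before drug. Against a floor of 3 counts summed over the 4T1 group, the rise of untreated Ccl7 was at least 145-fold in 4T1R1. In 4T1R2 the ratio to that floor was 2.93, from 8 counts in 1 library. With overlapping libraries it is not a lower bound.

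The other genes of this chemokine cluster on chromosome 11 gave almost no reads. Ccl11, which starts 22252 bases from Ccl2, had 4 counts in all, every one in treated 4T1R1, and Ccl12 and Ccl8 had 0. On the other side, Asic2 and 5530401A14Rik also had 0. Of the 6 genes starting within 250 kb of Ccl2, Ccl7 was therefore the only one to pass the filter on low counts. High levels in 4T1R1 were thus measured for 2 adjacent genes of the cluster and for none of their neighbors.

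**Figure D1:**
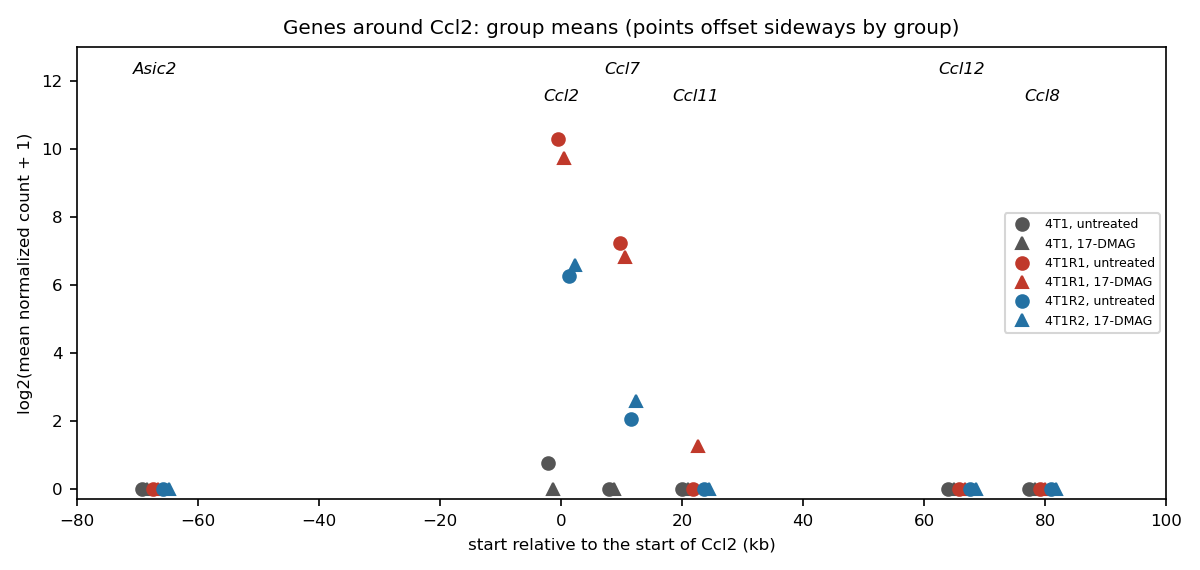
Group mean of normalized counts, as log2 of the mean plus 1, for the genes around Ccl2, against the distance of each start from that of Ccl2 in kb. Ccl2 and Ccl7 rise above the baseline in the resistant populations, highest in 4T1R1, while Asic2, Ccl12 and Ccl8 lie at 0 in all 6 groups.

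Ccl20 (chromosome 1, 83116766 to 83119167, plus strand) was low in 4T1 and high in both resistant populations. Untreated 4T1 libraries had 10.4, 13.9 and 13.7 normalized counts, and treated ones 4.02 and 0. In 4T1R1 the values were 263.1, 260.7 and 312 untreated and 152.4, 148.1 and 101.8 after drug. In 4T1R2 they were 235.9, 181.3 and 285.4 untreated and 180.7, 215.5 and 176.9 after drug. No resistant library came near the 4T1 range, and the untreated 4T1R1 and 4T1R2 libraries overlapped. The fitted untreated fold over 4T1 was 21.9 in 4T1R1 and 18.4 in 4T1R2. Of the 2 genes that start within 250 kb, Slc19a3 and Daw1, neither passed the filter.

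Cx3cl1 (chromosome 8, 94772009 to 94782427, plus strand) had the highest normalized counts of the members in every group and responded to drug in every population. In 4T1 the libraries had 1892, 1881 and 1902 untreated and 1109 and 1027 after drug. In 4T1R1 they had 2886, 3070 and 3062 untreated and 2120, 2027 and 2108 after drug. In 4T1R2 they had 2239, 2093 and 2026 untreated and 1726, 1712 and 1745 after drug. Within each population every treated library lay below every untreated one. By group mean the order was untreated 4T1R1, untreated 4T1R2, treated 4T1R1, untreated 4T1, treated 4T1R2 and treated 4T1, with overlap only between untreated 4T1R2 and treated 4T1R1. The untreated level was 1.59 times that of 4T1 in 4T1R1 and 1.12 times in 4T1R2.

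Ccl5 (chromosome 11, 83525778 to 83530518, minus strand) had group means from 216.8 in treated 4T1 to 354.4 in treated 4T1R2. Untreated 4T1 libraries had 258.9, 243.6 and 216.5 normalized counts and treated ones 206.8 and 226.8. In 4T1R1 the values were 294.3, 326.4 and 358.4 untreated and 253.1, 313.2 and 262.3 after drug. In 4T1R2 they were 294.4, 327.3 and 361.4 untreated and 303, 354 and 406.1 after drug. Each group overlapped with the next in order of mean, though the untreated resistant libraries all lay above the untreated 4T1 libraries, at 1.36 times their level in either population.

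Ccl25 (chromosome 8, 4325210 to 4360020, plus strand) was lowest in 4T1R2. Its values in 4T1 were 122.2, 120.7 and 131.7 untreated and 117.1 and 116.6 after drug. In 4T1R1 they were 109.1, 142.9 and 104 untreated and 124.6, 111.1 and 135 after drug. In 4T1R2 they were 74.8, 88.7 and 84.2 untreated and 70.4, 74.4 and 87.5 after drug. The 6 libraries of 4T1R2 all lay below the others, and the 4T1 and 4T1R1 libraries overlapped. The annotated start of Ccl25 lies 203 bases from that of Elavl1, head to head on the opposite strand with overlapping spans. Whether reads were counted by strand is not stated, so reads of Elavl1 may be among its counts. Elavl1 itself had group means of 5702 to 7806.

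**Figure D2:**
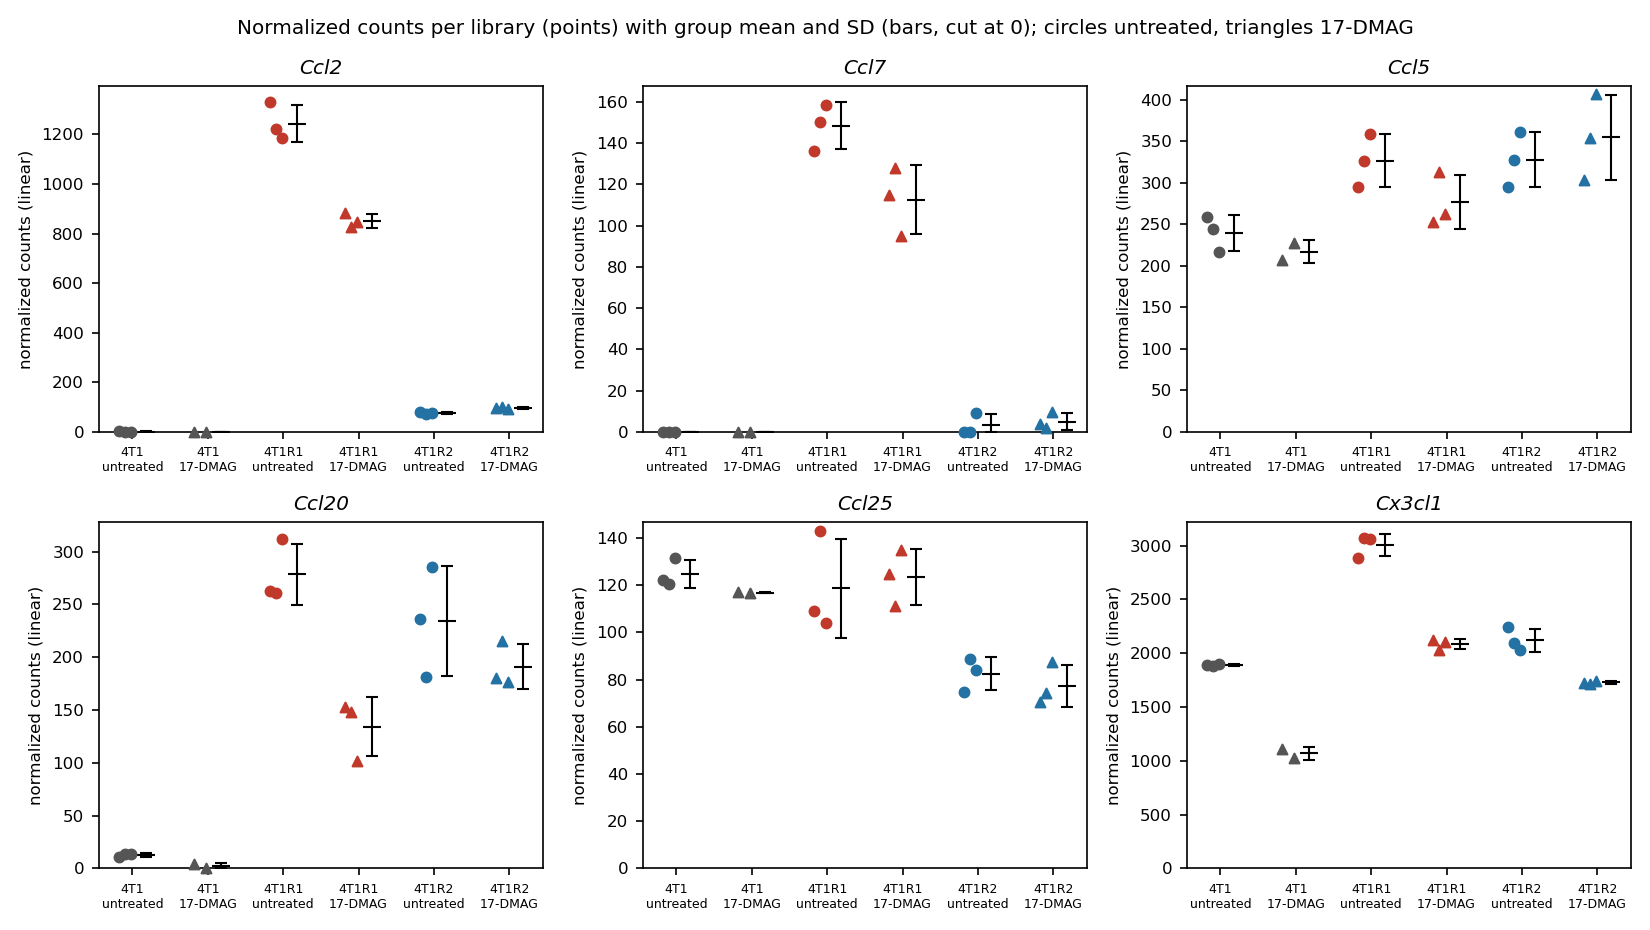
Normalized counts of the 6 chemokine genes in each library on a linear scale from 0, with circles for untreated and triangles for 17-DMAG-treated cells, and the group mean and SD as bars (n = 2 in treated 4T1, n = 3 elsewhere). Ccl2 and Ccl7 stand high in 4T1R1, Ccl20 stands high in both resistant populations, and Cx3cl1 lies lower after drug in all 3 populations.

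Levels of different genes were set side by side per kb of all annotated exons, which adjusts for gene length but not for the transcript expressed. These exons span 7445 bases for Ccl25, against 801 for Ccl7 and 1421 for Ccl20, so the per-kb level of Ccl25 may be too low. On this scale, in untreated 4T1, Cx3cl1 stood at 481.3 normalized counts per kb, Ccl5 at 249.7, Ccl25 at 16.8 and Ccl20 at 8.89, with Ccl2 at 0.607 and Ccl7 at 0. In untreated 4T1R1 the per-kb order was Ccl2 at 1093, Cx3cl1 at 765, Ccl5 at 340, Ccl20 at 196.1, Ccl7 at 185.3 and Ccl25 at 15.9. In untreated 4T1R2 it was Cx3cl1 at 539.3, Ccl5 at 341.4, Ccl20 at 164.8, Ccl2 at 66.7, Ccl25 at 11.1 and Ccl7 at 3.89. Ccl2 was thus the most abundant member per length in 4T1R1, ahead of Cx3cl1, and among the least abundant in 4T1.

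The first question put to a test was whether 17-DMAG changed chemokine transcripts in each population. In 4T1, 2 of 6 members fell and none rose, where 17.9% of the 13507 genes tested fell and 18.4% rose. Cx3cl1 fell to 0.566 of its untreated level, a log2 fold change of −0.82 ± 0.05 (SE, adjusted p = 1.49e-16). Ccl20 fell to 0.190, by −2.40 ± 0.66 (SE, adjusted p = 0.00364). Untreated libraries had 37 counts in sum, and treated ones an averaged count of 5 for replicates 1 and 2 and 0 for replicate 3. Without treated replicate 3, which had 0 counts, the Ccl20 change was −1.63 (adjusted p = 0.0805), and without treated replicate 2 it was −3.35 (adjusted p = 0.000955). Ccl5 (−0.15 ± 0.13, adjusted p = 0.42) and Ccl25 (−0.10 ± 0.17, adjusted p = 0.715) did not pass. Ccl2 and Ccl7 were at or under the floor on both sides, so no fold is given.

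In 4T1R1, 3 of 6 members fell and none rose, against 14.3% and 13.9% of all genes. Ccl2 fell to 0.684 of its untreated level (−0.55 ± 0.07 on the log2 scale, SE, adjusted p = 3.44e-07). Ccl20 fell to 0.483 (−1.05 ± 0.16, adjusted p = 1.61e-06) and Cx3cl1 to 0.694 (−0.53 ± 0.04, adjusted p = 8.07e-13). In all 3 the treated and untreated libraries did not overlap. Ccl7, the neighbor of Ccl2, had a log2 difference of −0.40 ± 0.26 (adjusted p = 0.276). Ccl5 had −0.24 ± 0.11 (adjusted p = 0.102), which without treated replicate 2 was −0.34 and passed (adjusted p = 0.0396). Ccl25 had 0.06 ± 0.15 (adjusted p = 0.822).

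In 4T1R2, 1 of 6 members fell and none rose, against 4.35% and 6.18% of all genes. Cx3cl1 fell to 0.814 of its untreated level (−0.30 ± 0.04, adjusted p = 6.16e-06), with no overlap between libraries. Ccl2 had a log2 difference of 0.33 ± 0.14 (adjusted p = 0.135), with treated libraries at 91.3 to 98.7 and untreated ones at 73.0 to 78.6. Ccl20 had −0.30 ± 0.15 (adjusted p = 0.24), Ccl5 0.12 ± 0.11 (adjusted p = 0.578) and Ccl25 −0.09 ± 0.17 (adjusted p = 0.828). Ccl7 had 0.67 ± 0.79 (adjusted p = 0.672) from 8 counts untreated and 16 after drug, and a fit without untreated replicate 3, which held all 8, called it higher (adjusted p = 0.0354). Without treated replicate 3 the Ccl7 value was −0.16.

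**Figure D3:**
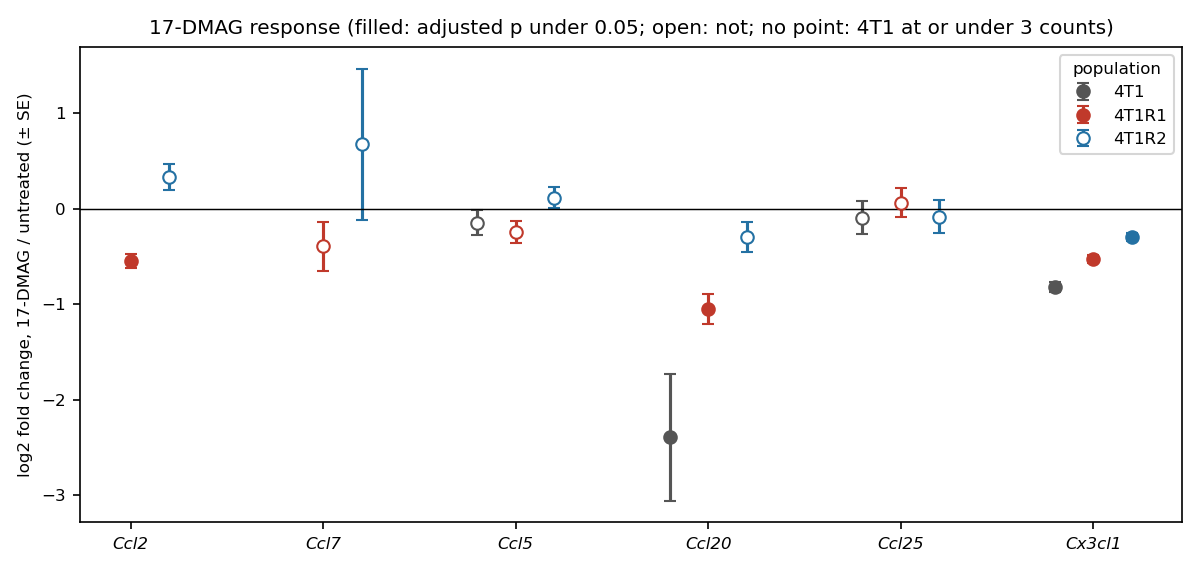
Fitted log2 fold change of each member after 17-DMAG, with its SE as the bar, in 4T1 (gray), 4T1R1 (red) and 4T1R2 (blue). Filled points passed an adjusted p of 0.05: Cx3cl1 in all 3 populations, Ccl20 in 4T1 and 4T1R1, and Ccl2 in 4T1R1.

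The second question was whether the response of a resistant population differed from that of 4T1, which was tested as an interaction in the same fit. For 4T1R1 minus 4T1, 1 member had a higher response and none a lower one, against 9.16% and 9.08% of all genes. It was Cx3cl1, with a difference of 0.29 ± 0.07 on the log2 scale (SE, adjusted p = 0.00141), so its fall was smaller in 4T1R1. The Ccl20 difference was 1.35 ± 0.72 and did not pass (adjusted p = 0.213), with 2.30 and 0.575 without treated 4T1 replicate 2 or 3. For 4T1R2 minus 4T1, 2 members had a higher response and none a lower one, against 9.62% and 8.16% of all genes. Cx3cl1 differed by 0.52 ± 0.07 (adjusted p = 1.42e-07) and Ccl20 by 2.10 ± 0.69 (adjusted p = 0.0294). The Ccl20 call was lost without untreated 4T1 replicate 2 (adjusted p = 0.0546) or 3 (adjusted p = 0.0627) and without treated 4T1 replicate 1 (adjusted p = 0.0547) or 3 (adjusted p = 0.27). Its value was 3.06 without treated 4T1 replicate 2 and 1.33 without replicate 3. Ccl5 and Ccl25 passed in neither comparison, with differences from −0.10 to 0.26, of which the −0.10 of Ccl5 for 4T1R1 turned to 0.05 under scaling by total counts. For Ccl2 and Ccl7 the 4T1 response had no usable value, so no difference of responses is given.

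The third question was whether the populations differed after drug. These libraries are others than the untreated ones, but come from the same populations, and the members were chosen with earlier values in view. A population difference present before drug can recur after it, so the calls below are not independent evidence of one. Ccl2 passed the filter only through the resistant groups and Ccl7 only through 4T1R1. The levels of both against 4T1, and those of Ccl7 between the resistant populations, are therefore given without a p. In treated 4T1R1 against treated 4T1, 3 of the other 4 members were higher and none lower, where 25.1% of all genes were higher and 27.6% lower. Ccl2 was at least 616.1-fold higher and Ccl7 at least 81.7-fold higher, both against 0 counts in 4T1 and a floor of 3 counts over the group. Ccl20 was 55.6-fold higher (log2 5.80 ± 0.41, adjusted p = 1.16e-15), and this fold rests on an averaged count of 5 in treated 4T1. Without treated 4T1 replicate 2 or 3 its log2 value was 6.75 or 5.03. Cx3cl1 was 1.95-fold higher (0.96 ± 0.05, adjusted p = 4.37e-19). Ccl5 was 1.28-fold higher (0.35 ± 0.13, adjusted p = 0.0216), a call lost without treated 4T1R1 replicate 2 (0.25, adjusted p = 0.136). Ccl25 did not pass (0.08 ± 0.17, adjusted p = 0.724).

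In treated 4T1R2 against treated 4T1, 3 of those 4 members were higher and 1 lower, where 25.8% of all genes were higher and 28% lower. Ccl2 was at least 69.3-fold higher. For Ccl7 the ratio to the floor was 3.52, from 16 counts in treated 4T1R2, which are too few for a lower bound. Ccl20 was 78.9-fold higher (6.30 ± 0.38, adjusted p = 9.53e-18), with 7.26 and 5.54 on the log2 scale without treated 4T1 replicate 2 or 3. Ccl5 was 1.64-fold higher (0.71 ± 0.13, adjusted p = 7.57e-06) and Cx3cl1 1.61-fold higher (0.69 ± 0.05, adjusted p = 1.09e-14). Ccl25 was lower, at 0.662 of the 4T1 level (−0.59 ± 0.18, adjusted p = 0.00456).

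Between the resistant populations after drug, 2 of the 5 members other than Ccl7 were higher in 4T1R2 and 3 lower, where 22.7% of all genes were higher and 21.3% lower. Ccl2 in 4T1R2 was at 0.113 of its level in 4T1R1 (−3.15 ± 0.10, adjusted p = 2.12e-26) and Ccl7 at 0.0443 (−4.50 ± 0.41). Ccl25 stood at 0.627 (−0.67 ± 0.16, adjusted p = 0.000715) and Cx3cl1 at 0.829 (−0.27 ± 0.04, adjusted p = 2.63e-06). Ccl5 was 1.28-fold higher in 4T1R2 (adjusted p = 0.00716), with overlapping libraries and no call without treated 4T1R1 replicate 1 (adjusted p = 0.0541) or treated 4T1R2 replicate 3 (adjusted p = 0.0872). Ccl20 was 1.42-fold higher (adjusted p = 0.00963), with no call without treated 4T1R1 replicate 3 (adjusted p = 0.106) or treated 4T1R2 replicate 2 (adjusted p = 0.0664). These differences cannot be told apart from the difference between library series. Untreated, 4T1R2 stood at 0.0613 of the 4T1R1 level for Ccl2 and 0.0211 for Ccl7, the latter from 8 counts in 1 of the 3 libraries of 4T1R2.

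The remaining CC chemokine ligands and Xcl1 were nearly silent. Of 20 such genes, 10 had no count in any library, 7 had counts but did not pass the filter, with group means of at most 5.52, and 3 passed, Ccl6, Ccl9 and Ccl17, none with a group mean above 28.0. None of the 3 was called with drug in any population, at counts too low to show an absence of change. No 4T1 library exceeded 6.48 normalized counts for Ccl9 or 9.62 for Ccl17, so both passed the filter through resistant libraries. Their levels against 4T1 are therefore given without a test. Untreated group means of Ccl9 were 2.03 in 4T1, 28.0 in 4T1R1 and 9.47 in 4T1R2. After drug the group means of Ccl9 were 4.85 in 4T1, 16.6 in 4T1R1 and 13.3 in 4T1R2. Those of Ccl17 after drug were 1.41, 9.24 and 1.83, and those of Ccl6 were 9.96, 8.92 and 2.82.

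Receptors were also sparse. Of 16 receptor genes 7 passed the filter. Ccr1, Ccr2, Ccr3 and Ccr6, receptors of members, had group means of at most 2.01 and were not tested. Ccr9, the receptor of CCL25, passed at group means of 2.43 to 10.9 and had no call with drug. The scavenger receptor Ackr3, which binds CXCL12, was the most abundant, at 1272 ± 60.4 (SD, n = 3) in untreated 4T1, and fell after drug in 4T1 (−0.44 ± 0.07 on the log2 scale, adjusted p = 1.38e-06). Cx3cr1, the receptor of CX3CL1, had group means of 58.4 to 138.6 and no call with drug. After drug it was higher in 4T1R1 (0.72, adjusted p = 0.00575) and in 4T1R2 (1.25, adjusted p = 3.08e-06) than in 4T1. Untreated, Cx3cr1 was also higher in 4T1R1 and 4T1R2 (0.47 and 0.90). No 4T1 library exceeded 5.85 normalized counts for Ccrl2 or 8.64 for Ccr4, so both passed the filter through resistant libraries. Their levels are therefore given without a test. Untreated group means of Ccrl2 were 4.07 in 4T1, 74.1 in 4T1R1 and 68.3 in 4T1R2, and those of Ccr4 were 2.42, 26.05 and 29.3. With drug, 1 of the 7 receptors fell in 4T1, 2 in 4T1R1 and none in 4T1R2, where 17.9%, 14.3% and 4.35% of all genes fell, and none rose. The counts that fell in 4T1 and 4T1R2 lie near those shares. Of all genes, 18.4%, 13.9% and 6.18% rose. The median log2 change of these receptors was −0.44, −0.10 and −0.01 in the 3 populations.

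Transcripts of the factors that act on chemokine promoters were measured as a further list. In 4T1, 7 of 9 fell with drug and 2 rose, in 4T1R1 7 fell and none rose, and in 4T1R2 4 fell and none rose. Of all genes, 17.9%, 14.3% and 4.35% fell and 18.4%, 13.9% and 6.18% rose in these populations. The 2 that rose in 4T1 lie near the share over all genes. The median log2 change of the list was −0.47, −0.29 and −0.15 in the 3 populations, against medians of all genes of 0.000645, −0.00856 and −0.00189. Relb, a subunit of the noncanonical NF-κB pathway, fell from 511.8 to 177.1 in 4T1 (−1.52 ± 0.11, adjusted p = 2.72e-15) and from 827.1 to 549.6 in 4T1R1 (−0.59 ± 0.08, adjusted p = 1.86e-07). Jun, an AP-1 subunit, fell from 3763 to 1590 in 4T1 (−1.24 ± 0.06). Nfkb1, Nfkb2 and Rela, which encode p105, p100 and p65 of NF-κB, fell in every population, Nfkb2 by −0.71 in 4T1, −0.31 in 4T1R1 and −0.16 in 4T1R2. Rel fell in 4T1 (−0.77) and Irf1, an interferon regulatory factor, in 4T1 (−0.43) and 4T1R1 (−0.21). Cebpb rose in 4T1 (0.67) and fell in 4T1R1 (−0.43).

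The same list stood higher in the resistant populations. After drug, 9 of 9 were higher in 4T1R1 than in 4T1, where 25.1% of all genes were, and 9 of 9 in 4T1R2, where 25.8% were. Untreated, 8 were higher and 1 lower in 4T1R1, where 25.2% of all genes were higher and 27.5% lower, and 6 were higher and none lower in 4T1R2, where 25.6% were higher and 26.9% lower. Between the untreated resistant populations, 1 was higher in 4T1R2 and 6 lower, where 19.7% of all genes were higher and 19% lower. Untreated Nfkb1 stood at 4450 in 4T1, 6975 in 4T1R1 and 6024 in 4T1R2, and untreated Irf1 at 902.9, 1600 and 1389.

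Factors that shorten or lengthen the life of chemokine mRNA formed another list of 6. Zfp36, Zfp36l1 and Zfp36l2, which bind AU-rich elements and speed decay, fell with drug in all populations, by −0.97, −1.15 and −0.99 on the log2 scale in 4T1, −0.26, −0.41 and −0.38 in 4T1R1, and −0.30, −0.30 and −0.15 in 4T1R2. Zc3h12a, the gene of the RNase Regnase-1, which cuts inflammatory mRNAs, fell in every population. It went from 248.6 to 114.6 in 4T1, from 1954 to 929.4 in 4T1R1 and from 1759 to 1333 in 4T1R2 (−1.14, −1.07 and −0.40, all called). Its level after drug was higher than in 4T1 by 3.05 in 4T1R1 and 3.56 in 4T1R2 on the log2 scale. Elavl1 and Khsrp changed by 0.11 or less in size with drug. In all, 4 of the 6 fell in 4T1, 5 fell and 1 rose in 4T1R1, and 4 fell and 1 rose in 4T1R2, with medians of −0.98, −0.32 and −0.22. Of all genes, 17.9%, 14.3% and 4.35% fell and 18.4%, 13.9% and 6.18% rose in the same comparisons.

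**Figure D4:**
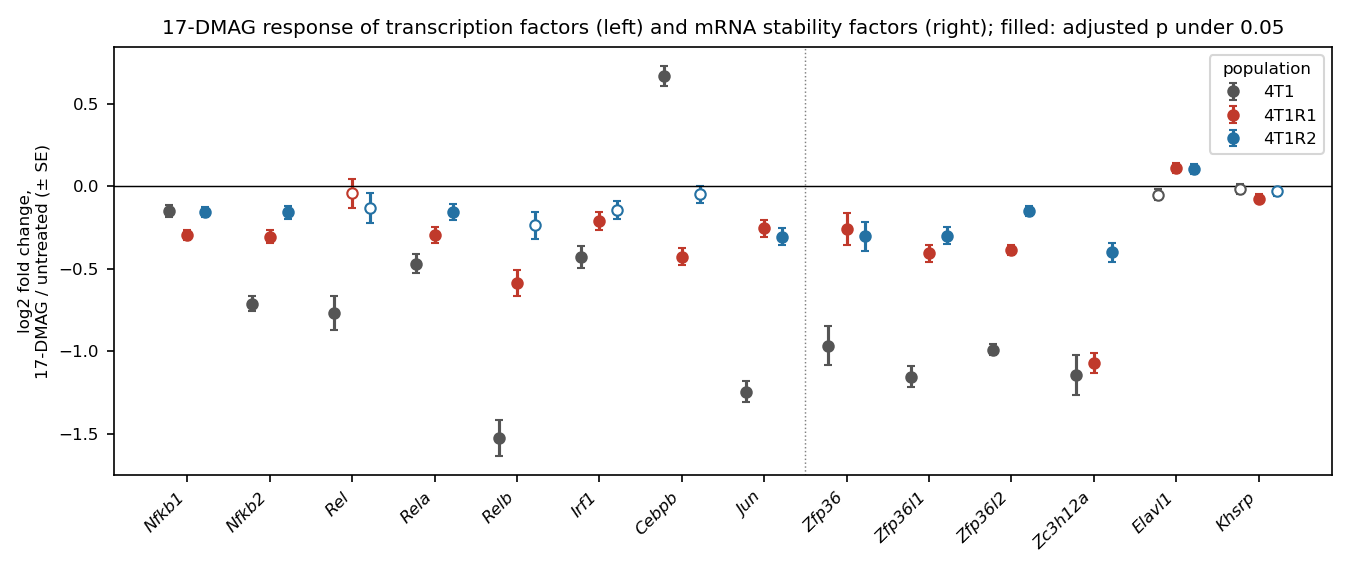
Fitted log2 fold change after 17-DMAG, with its SE, for 8 of the transcription factors of chemokine genes (left) and 6 mRNA stability factors (right) in 4T1 (gray), 4T1R1 (red) and 4T1R2 (blue). Filled points passed an adjusted p of 0.05, and the largest falls are those of Relb and Jun in 4T1.

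Proteases that release or trim chemokines were the last list. Adam10 and Adam17, the sheddases of CX3CL1, had group means of 3750 to 4544 and 2962 to 4014. Adam17 fell slightly with drug in 4T1 (−0.16), and Adam10 was not called with drug in any population. After drug Adam17 was higher in 4T1R1 (0.34) and 4T1R2 (0.36) than in 4T1, and Adam10 lower (−0.18 and −0.12). Mmp9 stood higher in the resistant populations after drug (0.93 and 1.43) and Mmp3 lower (−0.25 and −0.41), and both fell with drug in 4T1 and 4T1R1. Dpp4, which trims the end of CCL5 and other chemokines, did not pass the filter. Of the 5 proteases tested, 3 fell in 4T1, 2 in 4T1R1 and none in 4T1R2, where 17.9%, 14.3% and 4.35% of all genes fell, with median log2 changes of −0.16, −0.10 and 0.00454.

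Genes starting within 250 kb of the other members were compared with them. Around Cx3cl1, 13 of 15 neighbors passed the filter, and with drug 5 fell and 2 rose in 4T1, 4 fell in 4T1R1 and 2 fell in 4T1R2, where 17.9%, 14.3% and 4.35% of all genes fell and 18.4% rose in 4T1. Its closest tested neighbor was the chemokine Ccl17, at group means of 1.41 to 9.24, and Dok4 fell in 4T1 (−0.43) and 4T1R1 (−0.47). Of the 13 tested, 4 were higher and 5 lower in 4T1R1 after drug than in 4T1, and 4 higher and 4 lower in 4T1R2. Ccl17, among those tested, passed the filter through resistant libraries. After drug Adgrg1 (1.36 in 4T1R1 and 1.66 in 4T1R2) and Adgrg3 (0.48 and 1.69) stood higher than in 4T1. Cpne2, Rspry1, Fam192a, Arl2bp, Pllp, Coq9, Ciapin1, Polr2c and Ccdc102a differed by less than 0.5 in size in those comparisons. Around Ccl5, 11 of 20 passed (among them Heatr6, Ccl6, Ccl9, Heatr9, Taf15, Mmp28, 1700020L24Rik, Ap2b1, AA465934 and Slfn14), and after drug 2 were higher and 2 lower in each resistant population than in 4T1. Around Ccl25, 9 of 12 passed (Evi5l, Prr36, Lrrc8e, Map2k7, Tgfbr3l, Snapc2, Ctxn1, Timm44 and Elavl1), with none higher after drug in either resistant population and 3 lower in 4T1R1 and 2 in 4T1R2. In these comparisons 25.1% and 25.8% of all genes were higher and 27.6% and 28% lower, so that the counts around Ccl5 lie near the shares over all genes. Those higher around Ccl5 in 4T1R1 include Ccl9, which passed the filter only through resistant libraries.

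Some genes followed the members closely over the 17 libraries. These correlations, of log2 normalized counts over 10637 genes with a group mean of at least 100, rest on 6 groups that differ in population and library series, and carry no p. Ccl2 ran with Casp1 (Pearson r = 0.994), Adgrf5 (0.993) and Parp12 (0.989), all lowest in 4T1, intermediate in 4T1R2 and highest in 4T1R1. Ccl7 ran with Col5a3 (0.981), H2-K1 (0.969) and H2-Q10 (0.967), which had their highest group means in 4T1R1. Ccl20 ran with D030025P21Rik (0.988), Tmem176b (0.988) and Tns4 (0.986). Cx3cl1 ran with Sema3f (0.981), Cyp1b1 (0.972) and Prkcdbp (0.972), which fell with drug as it did in group means, Cyp1b1 from 2929 to 895.1 in 4T1. Ccl5 ran with Osr2 (0.940), Pfkp (0.917) and Prkcd (0.913), and Ccl25 with Xpnpep2 (0.934), Ncoa2 (0.930) and Xkr5 (0.927). Among the members themselves r ran from −0.569 for Ccl5 with Ccl25 to 0.878 for Ccl2 with Ccl7.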

How the data were processed

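Ribosomal RNA was removed from the total RNA of the 18 cultures before stranded library preparation. Reads were aligned with STAR to mm10 and counted per gene with featureCounts (Subread 1.6.2, with bcl2fastq 2.20, per the submitters' notes), and the authors deposited raw whole-number counts, a unit that was kept. Whether counting used the strand, and how reads with several alignments were treated, is not given in the sources used here. Counts were fitted for all genes with the quasi-likelihood test of edgeR 4.0.16 in R 4.3.3, with TMM scaling, the default expression filter, 1 term per group and Benjamini-Hochberg adjustment over the 13507 genes that passed, at a threshold of 0.05. Python 3.11.15 and matplotlib 3.10.9 drew the plots. The fit was tested on simulated data. Replicates 1 and 2 of treated 4T1 were averaged because they differed by 1.10 in chi-square per gene, against 2.04 to 2.22 in the other pairs, and left unaveraged as an alternative. The design text calls the 3 cultures of a group biological replicates.

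Normalized counts are counts scaled to the mean effective library size of 30965291. Intervals are exact, at 95%, and cover counting error only. They take each count as a separate event and are too narrow where counts come in pairs. With totals from 23354461 to 55094630 counts, a group sum of 0 counts allows up to 3 where each count is a separate event. It allows more where counts come in pairs.

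The members and gene lists were chosen with earlier results of these data known. The text names all members, every listed gene that passed the filter, was called in a comparison and reached a group mean of 100 normalized counts, all neighbors starting within 250 kb that passed, and the 3 genes most correlated with each member. Some genes under this rule are not reported here. Marker genes and genes outside this rule that are named, such as Ccr2, Ccl17 or Dpp4, were named after their values were seen. Alternatives were other scalings (RLE and total counts), no filter, DESeq2 1.42.0, fits of the compared groups only, a replicate block and leaving out each library.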

Additional observations from a re-analysis of the deposited data

Results flagged for a closer look

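For 2 members the response to 17-DMAG differed between a resistant population and 4T1 by a test of the difference itself in the edgeR fit. The Cx3cl1 difference was 0.29 ± 0.07 on the log2 scale (SE) for 4T1R1 minus 4T1 (adjusted p = 0.00141) and 0.52 ± 0.07 for 4T1R2 minus 4T1 (adjusted p = 1.42e-07), with a fall in every treated library of all populations. The adjusted p of the first ran from 5.38e-06 to 0.0326 over its 25 alternatives and that of the second from 2.54e-11 to 2.12e-05. The Ccl20 difference was 2.10 ± 0.69 for 4T1R2 minus 4T1 (adjusted p = 0.0294), from 0.00743 to 0.27 over 25 alternatives. It rests on 37 untreated counts and an averaged treated count of 5 in 4T1. Both differences share the 4T1 libraries.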

How the results depend on the processing

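With RLE scaling, no filter, DESeq2 or 18 separate libraries, each of the 38 values of a member in a tested comparison kept its direction and its side of the threshold. Under total counts 37 did, and Ccl5 in the difference of 4T1R1 from 4T1, which was not called, turned from −0.10 to 0.0533. With only the compared groups fitted 37 did, and Ccl7 in 4T1R2 was left out by the filter. Levels per kb of exon put Ccl2 before Cx3cl1 in 4T1R1. Leaving out 1 library kept 664 of these values, ended 10 calls, made 2 new ones and turned the direction of 8, none of them called. Those 8 were the response of Ccl25 in 4T1R1 (−0.026 to 0.213), that of Ccl7 in 4T1R2 (−0.157 to 5.34) and the difference of Ccl25 for 4T1R2 minus 4T1 (−0.0839 to 0.0858), with the range over all libraries left out in parentheses. The number of members called then ran from 1 to 2 for the response in 4T1 (1 without treated replicate 3), from 1 to 2 for the response in 4T1R2 (2 without untreated replicate 3), and from 1 to 2 for the difference of 4T1R2 from 4T1 (1 without untreated 4T1 replicate 2 or 3 or treated replicate 1 or 3). The number of listed genes called ran from 5 to 10 for the response in 4T1R2 (9 with all libraries, 5 without treated replicate 2) and from 10 to 16 for 4T1R2 against 4T1R1 after drug (16 with all libraries, 10 without treated 4T1R1 replicate 1). In each case fewer libraries were fitted.

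Scaling by total counts moved the median log2 value of all genes to −0.11 for the response in 4T1, to 0.15 for the difference of 4T1R1 from 4T1 and to 0.18 for 4T1R1 against 4T1 after drug. The share of called genes that were higher went from 50.7% to 21.6% for the response in 4T1, from 49.2% to 64.2% in 4T1R1 and from 58.7% to 24.2% in 4T1R2. It went from 50.2% to 89.4% and from 54.1% to 76.8% for the differences of 4T1R1 and 4T1R2 from 4T1, from 47.6% to 75.7% and from 48% to 62.4% for 4T1R1 and 4T1R2 against 4T1 after drug, and from 51.6% to 29.3% for 4T1R2 against 4T1R1 after drug.

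Libraries that share a replicate number did not deviate together, with correlations from −0.0516 to 0.0496, and 6 of 18 libraries ran best with their own number. No pairing by number was therefore detected, which does not show that the cultures were handled apart. A replicate block with 18 separate libraries gave 5542 genes called for the response in 4T1, against 5591 without the block, and changed none of the 38 member values' calls. In 4T1, Ccl2 and Ccl7 were too low for a fall to be detectable at this depth.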
